A study of Vitis riparia with 12 samples.

Results

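Stilbene synthases were followed in Vitis riparia, a North American grapevine, by reading shoot tip RNA through 51 of the 29970 gene identifiers listed in each library. These were all 10 listed identifiers from VIT_10s0042g00840 to VIT_10s0042g00930 (chromosome 10, 14216110 to 14306520), all 39 from VIT_16s0100g00750 to VIT_16s0100g01200 (chromosome 16, 16238964 to 16711898), and the regulators MYB14 (VIT_07s0005g03340; chromosome 7, 6210929 to 6212669) and MYB15 (VIT_05s0049g01020; chromosome 5, 8046870 to 8048411). Coordinates are as deposited, on a build not given in the sources used here. The identifiers were assigned to the family by their ranges, and no sequence was used to check that each of them is a stilbene synthase or how it matches a V. riparia copy. No other identifier lay between the first and last member of either array.

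Vines of genotype PI588259, 6 years old, were grown under a photoperiod of 15 h (LD) for 30 days and randomized, and 5 days later they stayed at 15 h or received 13 h (SD). Shoot tips of 4 nodes were collected after 7 and 21 days, giving 4 groups named LD7, SD7, LD21 and SD21 (the day of the LD libraries is taken from their titles). Each group has 3 libraries, and each library stands for a replicate of 5 vines, so differences among vines within a replicate were not measured. The LD groups are the controls collected on the same days, with the same genotype and no other treatment named.

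Stilbene synthase is a plant polyketide synthase that joins p-coumaroyl-CoA with malonyl-CoA to form resveratrol, the parent of the stilbene phytoalexins. It draws on the same substrates as chalcone synthase, the entry enzyme of flavonoid synthesis. In grapevine the genes lie in tandem arrays of closely similar copies, known for low levels in healthy young tissue and for induction by pathogens, wounding and ultraviolet light. MYB14 and MYB15 are transcription factors known in Vitis vinifera to activate stilbene synthase promoters.

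The values listed for the arrays were low in these tips. On the FPKM scale, which counts fragments scaled by transcript length and by the mapped total, the most abundant array member averaged 1.10 over the 12 libraries and the highest single value was 4.44. Among the 49 array members, 3 were listed at 0 in all libraries, namely VIT_10s0042g00860, VIT_16s0100g00870 and VIT_16s0100g00970. On chromosome 16, 32 members were above 0 in all 12 libraries, against 0 of the 10 on chromosome 10. Only 4 array members, all on chromosome 16, reached 1 FPKM in at least 3 libraries, the level required for testing across all genes. Just inside that limit, VIT_16s0100g00810, VIT_16s0100g00850 and VIT_16s0100g00950 reached it in exactly 3 libraries, and just outside, VIT_16s0100g00900, VIT_16s0100g00930, VIT_16s0100g00940 and VIT_16s0100g01080 reached it in 2. Both regulators passed, so 6 of the 51 were tested in that fit. Because most of the libraries that carried the 4 array members over the limit were SD21 libraries, the choice favours members that are high there, and calls of SD21 in that fit are not independent of it. A fit without the limit, over the 27306 genes above 0 in at least 1 library, took in 48 of the 51 and is given beside it.

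The number of reads behind the values is unknown. Steps between the values of low genes put the depth of the libraries at 1.00 to 1.58 times that of LD7 replicate 1. With reads of 43 bp and near-identical copies side by side, reads can match several members, and how they were shared is not given in the sources used here. Values of single members are therefore uncertain, while the sum over an array is less exposed to that split. In bulk tips, fewer cells of a type and less RNA per cell cannot be told apart.

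The chromosome 16 array was lowest under short days at day 7 and highest under short days at day 21. Its summed FPKM was 12.2, 9.25 and 13.7 in the LD7 libraries and 4.05, 4.46 and 2.42 in the SD7 libraries. At day 21 it was 14.3, 6.43 and 14.4 in LD21 and 21.05, 37.1 and 14.9 in SD21. The SD7 libraries all lay below the LD7 libraries, and the SD21 libraries all lay above the LD21 libraries, although SD21 replicate 3 exceeded the highest LD21 library only slightly. The group means were 11.7 ± 2.24 (SD, n = 3) in LD7, 3.64 ± 1.08 in SD7, 11.7 ± 4.56 in LD21 and 24.4 ± 11.5 in SD21. The SD7 mean was thus 3.21-fold lower than that of LD7, and the SD21 mean was 2.08-fold higher than that of LD21. The sums carry no test, since they are taken over chosen members.

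**Figure D1:**
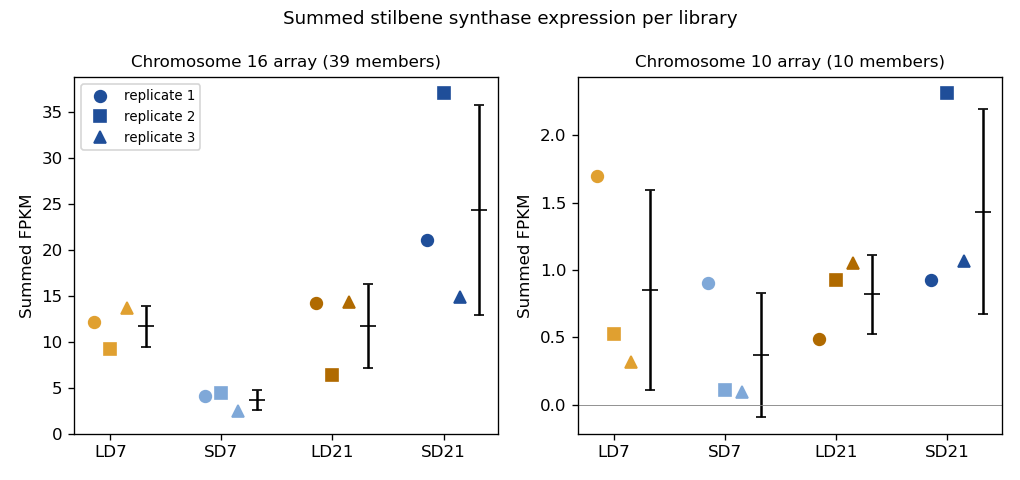
Summed FPKM of the chromosome 16 array (left) and the chromosome 10 array (right) in each of the 12 libraries, with symbols for the replicates and black bars for the group mean ± SD (n = 3). On the left the SD7 libraries lie between 2.42 and 4.46 and the SD21 libraries between 14.9 and 37.1, while on the right only SD21 and SD7 do not overlap.

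A single member set part of the LD21 level. VIT_16s0100g01080, a locus of 15286 bp at 16528779 to 16544065, was listed at 3.72, 0 and 4.44 FPKM in LD21 and at 0 in the other 9 libraries. Without it the LD21 sums were 10.6, 6.43 and 9.95, and the SD21 mean was 2.71-fold that of LD21. The status of every listed value was OK, so no 0 was flagged as failed. An exact 0 could not be checked without counts, so the locus is only described as listed at 0.

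The lower level under short days at day 7 was seen in most members of the chromosome 16 array, but no member passed the test. Near-identical copies can share reads, so members in the counts here and below are not separate observations. Of its 37 members above 0 in some library, 24 (64.9%) had all SD7 libraries below all LD7 libraries and 0 had the reverse, against 12.1% of all 27306 genes that were lower in this way and 9.46% that were higher. The ratio of the SD7 to the LD7 mean could be formed for 36 members and was below 1 in 34, and at its median the SD7 mean was 3.21-fold lower. VIT_16s0100g00840 had 0.32, 0.25 and 0.37 FPKM in LD7 against 0.065, 0.052 and 0.012 in SD7, a ratio of 0.137 that was the lowest of the array. The only members with a higher SD7 mean were VIT_16s0100g00760 and VIT_16s0100g01060, at means of 0.077 and 0.052 FPKM in SD7, and their libraries overlapped.

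The most abundant member, VIT_16s0100g00860 (16349896 to 16351446), had 1.02, 0.68 and 0.88 FPKM in LD7 against 0.30, 0.20 and 0.065 in SD7. Its log2 fold change was -0.65 ± 0.27 (SE, limma adjusted p = 0.29). For VIT_16s0100g00850 (16346417 to 16347950), at 0.56, 0.42 and 0.67 in LD7 and 0.14, 0.087 and 0.046 in SD7, the value was -0.50 ± 0.17 (adjusted p = 0.19). The groups did not overlap in either gene. Log2 fold changes here and below are on log2(FPKM + 1), which understates changes at such levels. In the same comparison limma called 0.833% of the 21848 genes in either direction and 0 of the 6 members, 2 of which were lower at an unadjusted p under 0.05, against 8.68% of genes. Without the limit on low values it called 0.304% of genes and 0 of the 48 members. There 15 members had an unadjusted p under 0.05, all lower, against 7.82% of all genes that were lower at that level.

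At day 21 the array was higher under short days. In the fit with the limit 1 of its 4 tested members was called higher, near the 24.6% of all genes. Of the 37 members above 0, 23 (62.2%) had all SD21 libraries above all LD21 libraries and 0 had the reverse, against 23.0% of all genes that were higher and 38.4% that were lower. The ratio of means was above 1 in all 35 members for which it could be formed, from 1.42 to 7.35 with a median of 2.82. In the fit with the limit, VIT_16s0100g00850 rose from 0.62, 0.47 and 0.60 FPKM in LD21 to 1.18, 1.97 and 1.01 in SD21 (log2 fold change 0.59 ± 0.17, SE, adjusted p = 0.0076). This gene reached 1 FPKM only in the SD21 libraries, so it was tested there through the group where it is high, and in the fit without the limit its adjusted p was 0.0031. The other 3 tested array members were not called, where 24.6% of all genes were called higher. VIT_16s0100g00860 had 1.41, 0.44 and 1.58 FPKM in LD21 and 1.76, 3.52 and 1.37 in SD21, and the groups overlapped (0.57 ± 0.27, adjusted p = 0.075). VIT_16s0100g00810 (16289328 to 16290878; 0.50 ± 0.24, adjusted p = 0.08) and VIT_16s0100g00950 (16430832 to 16431392; 0.57 ± 0.30, adjusted p = 0.11) were not called either. SD21 replicate 3 was the lowest SD21 library of all 4, and without it each of them was called higher, with adjusted p of 0.035 for VIT_16s0100g00860, 0.017 for VIT_16s0100g00810 and 0.0075 for VIT_16s0100g00950. VIT_16s0100g00860 was also called without LD21 replicate 3 (adjusted p = 0.046) and VIT_16s0100g00810 without LD21 replicate 1 (adjusted p = 0.041). Leaving out SD21 replicate 2 instead lowered the log2 fold changes to 0.30 for VIT_16s0100g00860 (adjusted p = 0.3), 0.24 for VIT_16s0100g00810 (0.33) and 0.26 for VIT_16s0100g00950 (0.43). Without LD21 replicate 2 they were 0.31 (adjusted p = 0.3), 0.355 (0.25) and 0.46 (0.27) in the same order. VIT_16s0100g00850 was called with any of the 12 libraries left out, at 0.425 to 0.707.

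Without the limit on low values, 24 of the 46 array members above 0 were called higher and 1 lower, against 21.8% and 36.7% of all genes. Of the 24, 23 lay on chromosome 16. They included VIT_16s0100g00930 (16408317 to 16409839), at 0.76, 0.30 and 0.66 FPKM in LD21 and 1.18, 1.87 and 0.89 in SD21 (0.55 ± 0.17, adjusted p = 0.018). The member called lower was VIT_16s0100g01080, whose LD21 libraries included a value of 0. The median log2 fold change was 0.33 over these 46 members and -0.14 over all genes of the fit. With the regulators, the calls in either direction numbered 26, and they fell to 16 without LD21 replicate 2 and to 16 without SD21 replicate 2, which held the highest value of 29 of the 37 chromosome 16 members.

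**Figure D2:**
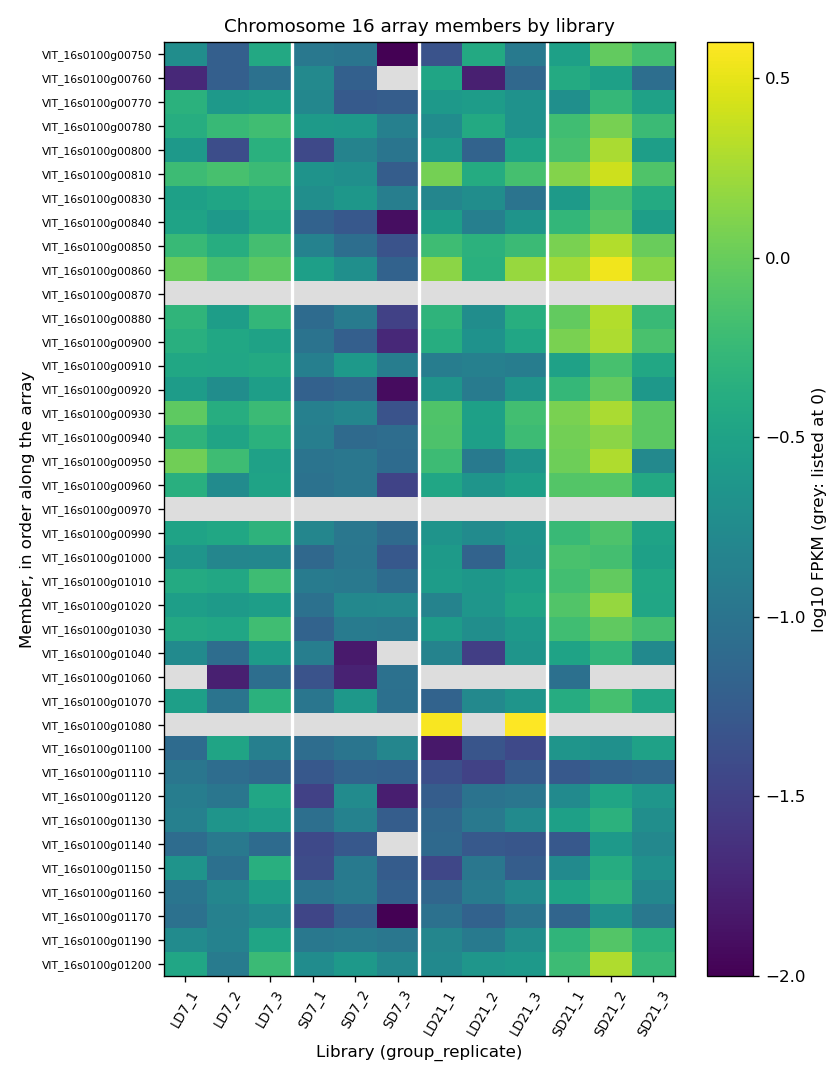
FPKM of the 39 chromosome 16 members (rows, in order along the array) in the 12 libraries (columns, named by group and replicate), as colour on a log10 scale with grey for values listed at 0. The SD7 columns are the darkest in most rows and the column of SD21 replicate 2 is the brightest in 29 rows, while VIT_16s0100g00870 and VIT_16s0100g00970 are grey throughout.

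The photoperiod difference changed between the collection days, and for the tested array members this change passed its own test. On chromosome 16, 17 of 37 members (45.9%) were lower without overlap at day 7 and higher without overlap at day 21, which is 70.8% of those lower at day 7 and 73.9% of those higher at day 21. Among all genes above 0, 2.63% showed this pattern. These day 7 and day 21 comparisons share no library. The photoperiod effect at day 21 less that at day 7 was called in the higher direction for each of the 4 tested array members, where 19.6% of the 21848 genes were called higher and 35.5% lower. The limit of 1 FPKM favoured members high in SD21, so these calls are not independent of it. The log2 differences were 1.22 ± 0.38 for VIT_16s0100g00860 (SE, limma adjusted p = 0.017), 1.10 ± 0.23 for VIT_16s0100g00850 (0.0021), 1.00 ± 0.34 for VIT_16s0100g00810 (0.025) and 1.15 ± 0.43 for VIT_16s0100g00950 (0.038). The call of VIT_16s0100g00810 was lost without LD7 replicate 2, SD7 replicate 3 or LD21 replicate 2, with adjusted p of 0.051, 0.053 and 0.063. That of VIT_16s0100g00950 was lost without any 1 of 9 libraries, with adjusted p up to 0.088. Without the limit on low values, 29 of 46 array members were called higher and 0 lower, against 17.0% and 28.8% of all genes. In that fit the limma adjusted p was 0.019 for VIT_16s0100g00860, 0.00087 for VIT_16s0100g00850, 0.024 for VIT_16s0100g00810 and 0.04 for VIT_16s0100g00950.

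Between the days, most members were higher at day 21 under short photoperiod, while no member was called under long photoperiod. In SD21 against SD7, 32 of the 37 chromosome 16 members (86.5%) were higher without overlap, against 22.8% of all genes, and 0 were lower, against 33.7%. The median ratio of means was 5.66, and the array sum was 6.69-fold higher. All 4 tested array members were called higher, from 0.81 ± 0.30 (SE) for VIT_16s0100g00950 (limma adjusted p = 0.035) to 1.39 ± 0.27 for VIT_16s0100g00860 (adjusted p = 0.00084), against 23.4% of all genes. Here too the limit of 1 FPKM favoured members high in SD21, so these calls are not independent of it. The call of VIT_16s0100g00950 was lost without SD7 replicate 1, 2 or 3, without SD21 replicate 1 and, with an adjusted p of 0.15, without SD21 replicate 2. Without the limit on low values 31 of 46 array members were called higher and 0 lower, against 20.7% and 30.9%. In that fit the limma adjusted p was 0.037 for VIT_16s0100g00950 and 0.001 for VIT_16s0100g00860. This comparison shares its SD7 and SD21 libraries with those above.

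In LD21 against LD7, limma called 18.1% of all genes and 0 of the 6 tested members, and 0 of the 6 had an unadjusted p under 0.05, against 34.7% of genes. Without the limit it called 13.3% of genes and 0 of 48 members, with 6 at an unadjusted p under 0.05 (30.2% of genes), 5 of them lower (11.3% of genes). However, 9 of 37 chromosome 16 members (24.3%) were lower in LD21 without overlap and 0 were higher, against 13.0% and 23.9% of all genes. VIT_16s0100g01100 had 0.08, 0.33 and 0.13 FPKM in LD7 against 0.015, 0.049 and 0.037 in LD21. VIT_16s0100g00910 had 0.35, 0.35 and 0.38 in LD7 against 0.13, 0.14 and 0.13 in LD21. In SD21 their means were 0.25 and 0.46 FPKM, and neither had an SD21 library within the range of LD21.

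The size of the differences varied along the array. From VIT_16s0100g00800 to VIT_16s0100g00960, a stretch of 15 members chosen after the values were seen, the summed FPKM was 6.41 ± 1.22 (SD, n = 3) in LD7, 1.505 ± 0.57 in SD7, 5.75 ± 2.21 in LD21 and 14.7 ± 7.51 in SD21. From VIT_16s0100g00970 to the end of the array, 19 members without VIT_16s0100g01080 summed to 4.15 ± 1.37, 1.68 ± 0.39, 2.41 ± 0.47 and 7.60 ± 3.21 in the same order. The former stretch was thus 4.26-fold lower in SD7 than in LD7 and the latter 2.47-fold. In SD21 against LD21 the order was the other way, with the former 2.56-fold and the latter 3.16-fold higher. With VIT_16s0100g01080 included, the latter was 1.48-fold higher. In LD21 against LD7 the former was 1.12-fold and the latter 1.72-fold lower, and the libraries of the latter in LD21 (2.09 to 2.95) did not overlap those in LD7 (3.18 to 5.72). This rests on the removal of VIT_16s0100g01080: with it the latter stretch averaged 5.13 ± 2.73 FPKM in LD21 (5.90, 2.09 and 7.38 by library), 1.24-fold its LD7 mean, and the libraries overlapped. The first 4 members of the array, VIT_16s0100g00750 to VIT_16s0100g00780, had a sum 2.48-fold lower in SD7 than in LD7. These differences between stretches are descriptions and were not tested.

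**Figure D3:**
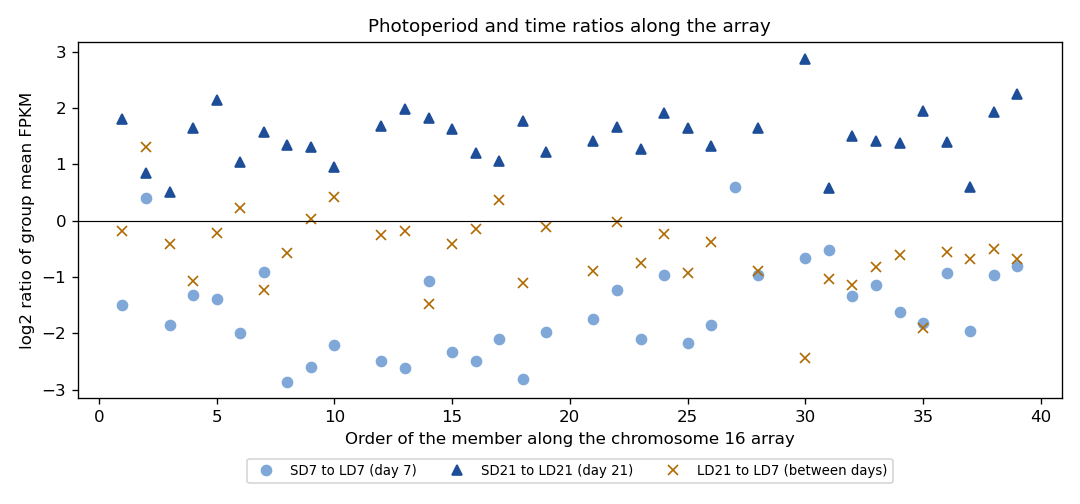
Log2 ratio of group mean FPKM for each chromosome 16 member against its order along the array (1 to 39), for SD7 to LD7 (circles), SD21 to LD21 (triangles) and LD21 to LD7 (crosses), with members left out where a mean was 0. All triangles lie above 0 and all circles but 2 lie below, and the lowest circle, VIT_16s0100g00840 at a ratio of 0.137, lies in the stretch from VIT_16s0100g00800 to VIT_16s0100g00960.

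The 5 most abundant members held 30.0% and the 10 most abundant 49.9% of the mean FPKM of the array over the 12 libraries. By group, VIT_16s0100g00860 held the largest share in LD7 (7.33%) and SD21 (9.10%) and VIT_16s0100g00780 in SD7 (5.94%). In LD21, VIT_16s0100g01080 held 23.2%, followed by VIT_16s0100g00860 with 9.77%. Over the 12 libraries, log2(FPKM + 0.1) of the 35 members above 0 in at least 10 libraries correlated pairwise with a median r of 0.76 (595 pairs, from -0.31 to 0.99), and with a median of 0.48 after group means were removed. These points share libraries and, among near-identical copies, possibly reads, so they describe likeness only.

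The chromosome 10 array was at the edge of detection. Its mean sum was also lowest in SD7 and highest in SD21, but the photoperiod groups overlapped. The means were 0.85 ± 0.74 (SD, n = 3) in LD7, 0.37 ± 0.46 in SD7, 0.82 ± 0.29 in LD21 and 1.43 ± 0.76 in SD21. Its summed FPKM was 1.70, 0.53 and 0.32 in LD7, 0.90, 0.11 and 0.096 in SD7, 0.49, 0.92 and 1.05 in LD21, and 0.92, 2.31 and 1.07 in SD21. The photoperiod groups overlapped on both days, and only SD21 lay wholly above SD7. Its most abundant member on average, VIT_10s0042g00880, is a locus of 313 bp (14264036 to 14264349) that was listed at 0 in 7 libraries and at 1.07 FPKM in LD7 replicate 1. The chromosome 16 array held 81.8% to 97.7% of the FPKM of both arrays in every library.

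On chromosome 10, VIT_10s0042g00840, VIT_10s0042g00870, VIT_10s0042g00890, VIT_10s0042g00910, VIT_10s0042g00920 and VIT_10s0042g00930 had their lowest group mean in SD7 and their highest in SD21. VIT_10s0042g00920 (14298955 to 14300552) had 0.19, 0.12 and 0.065 FPKM in LD7 against 0.052, 0 and 0.024 in SD7. At day 21 it had 0.19, 0.064 and 0.13 in LD21 against 0.25, 0.45 and 0.25 in SD21, and the groups did not overlap on either day. In the fit without the limit it was called higher in SD21 against LD21 (log2 fold change 0.22 ± 0.08, SE, limma adjusted p = 0.03) and for the difference between the days (0.35 ± 0.11, adjusted p = 0.021). VIT_10s0042g00930 was called for that difference (0.24 ± 0.09, adjusted p = 0.048), while VIT_10s0042g00890 (0.23 ± 0.10, adjusted p = 0.077) and VIT_10s0042g00870 (0.35 ± 0.17, adjusted p = 0.12) were not. VIT_10s0042g00840 (adjusted p = 0.23) and VIT_10s0042g00910 (adjusted p = 0.46) were not called for it either. Of the 9 members above 0, 3 (33.3%) were lower in SD7 than in LD7 without overlap and 2 (22.2%) higher in SD21 than in LD21 without overlap, against the 12.1% and 23.0% of all genes.

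MYB15 rose at day 21 under short days, and MYB14 did not pass the test in any comparison as deposited. MYB15 had 0.095, 0.80 and 0.60 FPKM in LD7, 0.18, 0.27 and 0.48 in SD7, 0.31, 1.23 and 0.47 in LD21, and 3.54, 4.27 and 7.28 in SD21. Each SD21 library lay above all 9 others. The log2 fold change was 1.84 ± 0.28 in SD21 against LD21 (SE, limma adjusted p = 1e-04), 2.16 ± 0.28 in SD21 against SD7 (adjusted p = 4.3e-05) and 2.01 ± 0.39 for the difference of the photoperiod effect between the days (adjusted p = 0.0012). Of the 4 libraries in which it reached 1 FPKM, 3 were those of SD21, and in the fit without the limit its adjusted p was 0.00014, 6.3e-05 and 0.0015 in the same order. At day 7 the groups overlapped (-0.17 ± 0.28, adjusted p = 0.84), as they did in LD21 against LD7 (0.15 ± 0.28, adjusted p = 0.73). Within SD21 the highest library was replicate 3 for MYB15 but replicate 2 for both array sums.

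MYB14 had 2.46, 3.67 and 3.39 FPKM in LD7, 3.58, 2.66 and 2.36 in SD7, 4.57, 2.73 and 2.93 in LD21, and 3.73, 3.37 and 3.95 in SD21. The groups overlapped in all 4 comparisons of pairs. Its log2 fold change was -0.11 ± 0.19 in SD7 against LD7 (SE, limma adjusted p = 0.85), 0.11 ± 0.19 in SD21 against LD21 (adjusted p = 0.64) and 0.29 ± 0.19 in SD21 against SD7 (adjusted p = 0.22). In SD21 the median gene was 0.30 lower on the log2 scale than in LD21, and quantile normalization, which removes that shift, made MYB14 higher in SD21 than in LD21 (0.51 ± 0.18, adjusted p = 0.026) and than in SD7 (0.61 ± 0.18, adjusted p = 0.013). The chromosome 16 sum kept its direction under that normalization, lower in SD7 than in LD7 and higher in SD21 than in LD21, the latter with a log2 ratio of 1.55 against 1.06 as deposited.

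**Figure D4:**
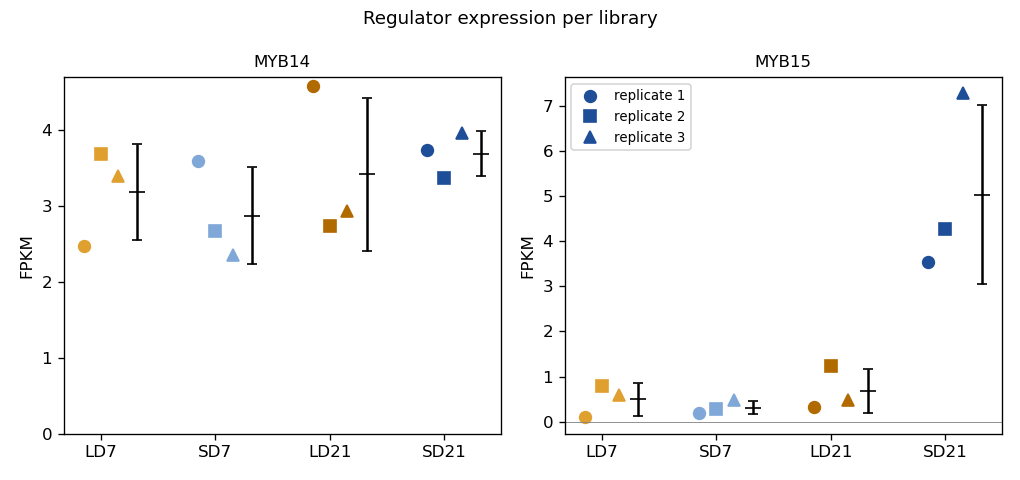
FPKM of MYB14 (left) and MYB15 (right) in the 12 libraries, with symbols for the replicates and black bars for the group mean ± SD (n = 3). MYB14 lies between 2.36 and 4.57 with overlapping groups, and MYB15 reaches 3.54 to 7.28 in SD21 against at most 1.23 elsewhere.

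Genes beside the arrays were counted in the same way. Among the 20 neighbours of the chromosome 16 array, 10 on each side, 2 were lower and 1 higher without overlap in SD7 against LD7, and 9 were lower and 2 higher in SD21 against LD21. Of the 20 neighbours of the chromosome 10 array, of which 17 were above 0, 0 were lower or higher without overlap at day 7, and 8 were lower and 4 higher at day 21. Among all genes above 0, 12.1% were lower and 9.46% higher at day 7, and 38.4% were lower and 23.0% higher at day 21. The chromosome 16 neighbours had a median of 14.7 FPKM, far above the array members. Nothing in these counts was tested between the arrays and their neighbours.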

How the data were processed

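Each deposited file lists, per the file headers, an FPKM value, a locus and a status for every gene of its library. The submitters' processing notes name Cufflinks 2.2.1, TopHat2 2.0.13, Bowtie2 2.2.4, cutadapt 1.8.1 and FastQC 0.11.3, without parameters. For the genome build, annotation, use of strand and sharing of multiply mapped reads, nothing was stated (not given in the sources used here). In SD21 replicate 3 the values sit under a header that names replicate 2, yet they are not those of replicate 2. Between libraries of a group, no more than 1 nonzero value was shared exactly.

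Libraries were joined by identifier. Genes reaching 1 FPKM in 3 or more libraries (21848) were fitted on log2(FPKM + 1) with limma 3.58.1 (R 4.3.3), using group means over all 12 libraries and eBayes with trend and robust moderation. Calls are Benjamini-Hochberg adjusted p under 0.05 over all genes tested. Array sums and ratios of means use FPKM as deposited and have no test. Groups do not overlap where every value of 1 group lies beyond every value of the other. The p-values set a group difference against the spread between these libraries, pooled over the groups and moderated across genes. Plots were made with matplotlib 3.10.9 under Python 3.11.15, and the model was tested on simulated data.

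The members and lists were chosen with earlier results of these data known. Named are both regulators, the 5 most abundant members of each array and up to 3 called members per comparison and direction, besides members singled out after their values were seen. A planned list of other pathway enzymes was not used, because no reference at hand paired these identifiers with gene names. Alternatives tried were quantile normalization, a fit without the trend, no filter, a pseudocount of 0.1, a fit to the compared groups alone, a block for the replicate number and the omission of each library.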

Additional observations from a re-analysis of the deposited data

Results flagged for a closer look

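The photoperiod effect differed between day 7 and day 21 by the direct test for MYB15, with a log2 difference of 2.01, and for the chromosome 16 members VIT_16s0100g00860 (1.22), VIT_16s0100g00850 (1.10), VIT_16s0100g00810 (1.00) and VIT_16s0100g00950 (1.15). The limit of 1 FPKM favoured members high in SD21, so these calls are not independent of it. Each of these genes was also called in the fit without the limit. The calls of VIT_16s0100g00810 and VIT_16s0100g00950 were lost when certain single libraries were left out. In the fit without the limit on low values the photoperiod effect also differed for VIT_16s0100g00930 (1.09), VIT_10s0042g00920 (0.35) and VIT_10s0042g00930 (0.24). VIT_10s0042g00890 lay wholly lower in SD7 and wholly higher in SD21, with log2 ratios of means 2.99 apart, but was not called in that fit. The chromosome 16 sum moved in opposite directions on the days, with log2 ratios 2.74 apart, and this difference was not tested.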

How the results depend on the processing

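In SD21 against LD21, 2 of the 6 tested members were called in the filtered fit and 5 after quantile normalization. With a library left out it was 2 to 5. Without the filter 26 of 48 were called, and 26 with a pseudocount of 0.1 as well. Of all genes, 24.6% were called higher with the filter, and 21.8% higher and 36.7% lower without it. Counts out of 6 and out of 48 differ in the number tested, so a larger count is not a stronger result. Shares over all genes under the other settings are not given here. For the difference between the days, 5 of 6 became 30 of 48 without the filter, and 32 with the lower pseudocount as well. With a library left out of the filtered fit it was 3 to 5. Of all genes, 19.6% were called higher and 35.5% lower with the filter, and 17.0% and 28.8% without it. For SD21 against SD7, 5 of 6 became 32 and 35 of 48. Of all genes, 23.4% were called higher with the filter, and 20.7% higher and 30.9% lower without it. Among the 48 members without the filter, leaving out a library gave 16 to 31 calls for SD21 against LD21. It gave 21 to 31 for the difference and 0 to 1 for LD21 against LD7. With the replicate number as a block, of 6 members 2 were called in SD21 against LD21, 5 for the difference and 5 in SD21 against SD7. At day 7 it was 0. Deviations of same-numbered libraries correlated at -0.069 to 0.203. With 3 libraries a group, these values cannot settle whether the numbers pair the libraries. No alternative gave a call at day 7. MYB14 was called only after quantile normalization (0.51 and 0.61). Its value for SD21 against LD21 ran from -0.001 to 0.29 and for LD21 against LD7 from -0.11 to 0.18 with a library left out, and that of MYB15 for LD21 against LD7 from -0.077 to 0.30. In the same comparison VIT_16s0100g00810 ran from -0.09 to 0.218 and VIT_16s0100g00850 from -0.049 to 0.068. The chromosome 16 sum of LD21 against LD7, at a log2 ratio of 0.0, was -0.38 without VIT_16s0100g01080 and -0.18 to 0.29 with a library left out, and that of chromosome 10, at -0.049, was 0.036 after quantile normalization and -0.44 to 0.95. The day 7 ratio of chromosome 16 was -2.35 over the 4 detected members. The causes were not tested. The number of reads is unknown, so values listed at 0 set no upper limit.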
